A study of Mus musculus with 18 samples.

Results

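The MHC class I presentation genes were described in mouse brain: 10 of the 18683 genes in the deposited expression table, taken by symbol. They were the heavy chains H2-K1 and H2-D1, the light chain B2m, the peptide transporter genes Tap1 and Tap2, the loading chaperone gene Tapbp, the immunoproteasome subunit genes Psmb8, Psmb9 and Psmb10, and the transcriptional regulator Nlrc5. Bulk RNA was sequenced from prefrontal cortex and hippocampus of male mice on the C57BL/6J strain. 5xFAD mice given extracellular vesicles (EV) purified from human breast milk, 5xFAD mice given phosphate-buffered saline (PBS) and wildtype mice given PBS each supplied 3 libraries per tissue, 18 libraries in all. All mice were injected intravenously every 3 days, 10 times, from the age of 5 months to 6 months. Behavioural tests and perfusion with cold PBS preceded the dissection. 5xFAD mice carry mutant human APP under the Thy1 promoter, which is active in neurons, and develop amyloid plaques. Thy1 itself, counted as a check on the genotype labels, was 768 to 1415 FPKM in the 5xFAD libraries and 432 to 506 FPKM in wildtype libraries.

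MHC class I molecules display peptides from inside the cell at its surface to CD8 T cells and natural killer cells. Proteasomes cut the peptides, the TAP transporter moves them into the endoplasmic reticulum, tapasin holds the empty heavy chain and its light chain beside TAP, and the loaded complex travels to the surface. Interferons raise most of these genes together, and interferon-stimulated cells replace the constitutive catalytic subunits of the proteasome with the immunoproteasome subunits. In brain, microglia and endothelial cells are known for class I expression, and neurons for low expression.

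The promoters of the heavy and light chain genes are shown because class I promoters are textbook examples of shared control elements. Windows of 250 bases before and 50 bases after the annotated start, from RefSeq on build GRCm38.p6, were held for 8 of the 10 genes; Tap2 and Nlrc5 had none. Capitals mark matches to the interferon regulatory factor core AANNGAAA, to the NF-kB consensus, and to a module in which TGACG (the core of the X2 element) is followed after 20 bases by ATTGG (the Y box CCAAT on the other strand). Single TGACG or CCAAT matches outside the module stay in lower case. H2-K1 lies on the minus strand at chr17:34000298-34000597, H2-D1 on the plus strand at chr17:35262844-35263143, B2m on the plus strand at chr2:122147437-122147736 and Tap1 on the plus strand at chr17:34187306-34187605.
H2-K1: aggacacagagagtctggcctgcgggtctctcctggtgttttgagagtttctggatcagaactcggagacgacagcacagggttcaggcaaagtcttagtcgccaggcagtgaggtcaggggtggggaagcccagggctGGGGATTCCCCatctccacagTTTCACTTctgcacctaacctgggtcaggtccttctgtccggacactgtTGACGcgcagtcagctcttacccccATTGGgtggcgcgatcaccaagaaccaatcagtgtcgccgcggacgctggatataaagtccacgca
H2-D1: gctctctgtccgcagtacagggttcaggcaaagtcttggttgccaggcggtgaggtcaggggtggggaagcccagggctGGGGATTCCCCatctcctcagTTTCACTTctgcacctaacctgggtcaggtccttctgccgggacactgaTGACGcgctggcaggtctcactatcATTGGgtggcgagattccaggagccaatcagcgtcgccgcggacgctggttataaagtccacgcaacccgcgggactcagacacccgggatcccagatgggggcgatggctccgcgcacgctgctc
B2m: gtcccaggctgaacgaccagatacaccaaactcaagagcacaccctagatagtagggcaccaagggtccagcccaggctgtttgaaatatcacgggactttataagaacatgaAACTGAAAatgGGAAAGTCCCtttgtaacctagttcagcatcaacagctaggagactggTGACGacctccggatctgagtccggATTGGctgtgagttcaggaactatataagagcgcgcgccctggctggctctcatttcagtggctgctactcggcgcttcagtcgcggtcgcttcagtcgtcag
Tap1: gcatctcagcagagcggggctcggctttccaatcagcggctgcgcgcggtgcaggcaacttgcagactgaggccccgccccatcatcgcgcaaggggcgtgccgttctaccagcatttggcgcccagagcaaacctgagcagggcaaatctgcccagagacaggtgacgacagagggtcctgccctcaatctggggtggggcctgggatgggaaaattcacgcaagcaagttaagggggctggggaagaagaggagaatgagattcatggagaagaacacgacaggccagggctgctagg

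All 5 patterns were searched on both strands. The module was present in 3 of the 8 promoters, those of H2-K1, H2-D1 and B2m, and in 31 of 32851 promoter windows of the genome (0.0944%). Its spacing was set after these sequences had been seen. The same 3 promoters held an interferon regulatory factor core, found in 23.9% of all windows, and an NF-kB consensus, found in 8.46%. TGACG at any place was in 5 of the 8 (20.8% of all windows) and CCAAT in 6 of the 8 (37.4%), and both patterns form the ends of the module. Psmb9 is read from the strand opposite Tap1, and their windows overlap by 275 bases. Psmb9, Tap1, Psmb8 and Tap2 are neighbours in that order on chromosome 17, and H2-K1, H2-D1 and Tapbp lie on the same chromosome. B2m is on chromosome 2, and Psmb10 and Nlrc5 are on chromosome 8. A match describes letters in a window and does not show that a factor binds there.

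**Figure D1:**
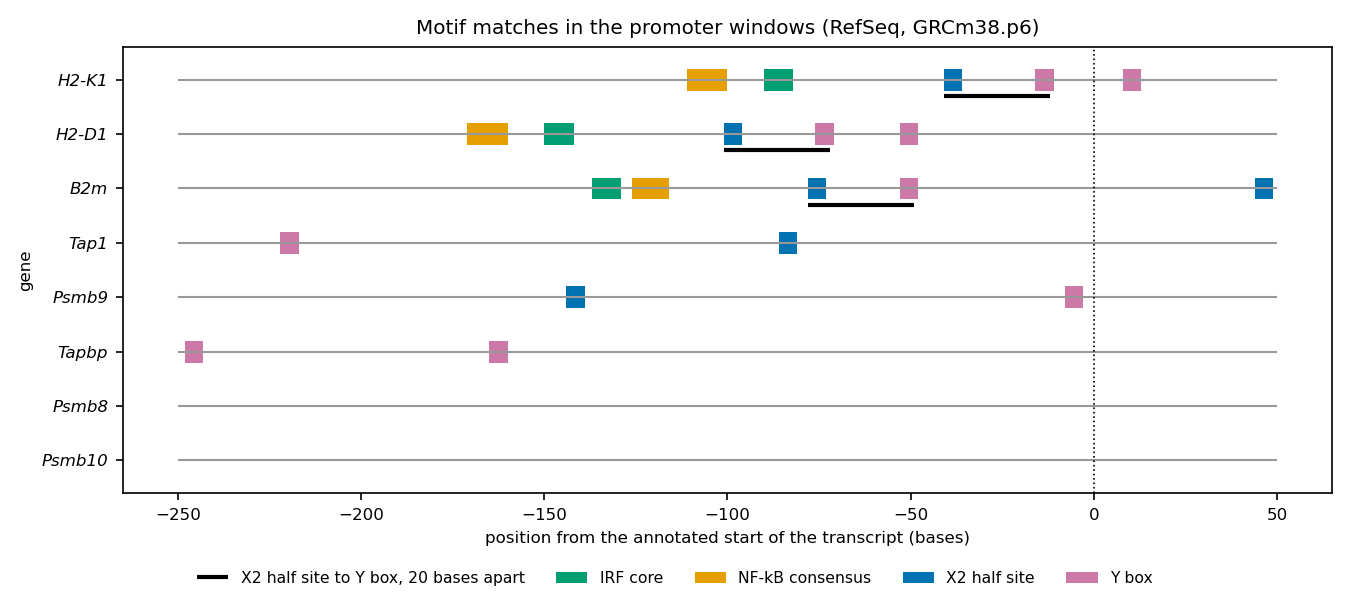
Motif matches in the promoter windows of 8 class I presentation genes, by position in bases from the annotated start of the transcript; coloured boxes are matches on either strand and black bars mark the X2 to Y module. H2-K1, H2-D1 and B2m carry the module, an interferon regulatory factor core and an NF-kB consensus, and no match of any pattern lies in the windows of Psmb8 and Psmb10.

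Expression was given as FPKM, fragments scaled by transcript length and by library depth, which allows levels to be compared between genes. The libraries held 26437852 to 36901744 reads in the listed genes. For a gene of typical length, 1 read amounted to 0.00843 to 0.0118 FPKM. The 9 genes other than Nlrc5 were above 0.5 FPKM in every library. Tests were made with limma on log2(FPKM + 0.5), a scale that understates the change of low genes. A gene counted as called when its p, adjusted by the Benjamini-Hochberg method over all genes tested, was under 0.05. The labels do not say that replicates were separate mice, so each p-value is relative to the spread among these libraries, which may be technical. In bulk tissue, fewer cells of a type and less RNA per cell cannot be told apart.

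Levels of the 10 genes differed over a wide range. B2m was the highest, with group means between 201 and 616 FPKM, followed by H2-D1 at 38.8 to 119 FPKM and H2-K1 at 18.2 to 54.8 FPKM. Psmb10 and Tapbp had means of 21.7 to 26.1 and 10.1 to 22.4 FPKM, Psmb8 of 4.33 to 17.5 FPKM, and Tap2, Psmb9 and Tap1 between 0.8 and 6.21 FPKM. Nlrc5 was the lowest, at 0.0717 to 0.44 FPKM. For 9 of the 10 genes the hippocampus of 5xFAD mice given PBS had the highest mean of the 6 groups; Psmb10 was the exception.

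**Figure D2:**
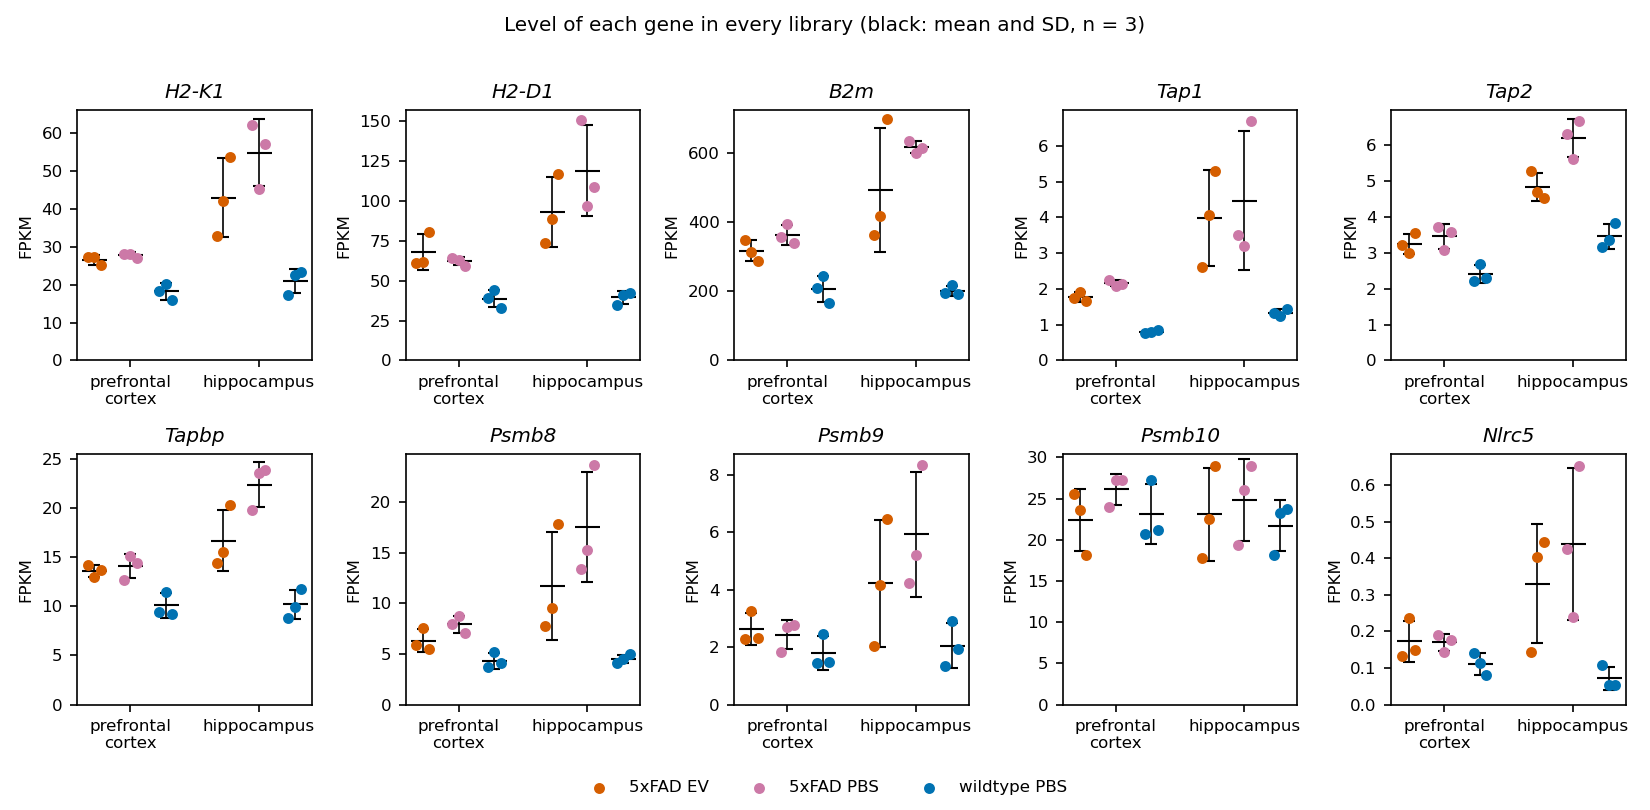
FPKM of the 10 genes in every library, by tissue, with points coloured by group (5xFAD EV, 5xFAD PBS, wildtype PBS from left to right) and black bars for the mean and SD of 3 libraries. The 5xFAD points stand above the wildtype points for most genes and more widely in hippocampus, whereas the groups of Psmb10 overlap.

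The first comparison asked how class I presentation genes differed between 5xFAD and wildtype mice that both received PBS. In hippocampus 7 of the 9 tested genes were higher in 5xFAD mice and none was lower, against 4.19% of all 13305 tested genes called higher. Their median log2 fold change was 1.36, and that of all tested genes was 0.02. The groups did not overlap for 8 of the 9 genes, with 16.5% of all tested genes higher without overlap.

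The heavy chains bind the peptide and face the T cell receptor. H2-K1 was at 62.1, 45.1 and 57.2 FPKM in 5xFAD PBS hippocampus, against 17.3, 22.4 and 23.2 FPKM in wildtype hippocampus. H2-D1 was at 151, 97 and 109 FPKM in 5xFAD PBS hippocampus, against 35, 41.3 and 42.3 FPKM in wildtype hippocampus. For both genes the lowest 5xFAD library stood well above the highest wildtype library. The log2 fold change was 1.36 (SE 0.19, adjusted p = 0.0031) for H2-K1 and 1.56 (SE 0.19, adjusted p = 0.0018) for H2-D1. B2m encodes the light chain that every class I heavy chain needs for folding. It was at 634, 600.3 and 614 FPKM in 5xFAD PBS hippocampus, against 195, 217 and 192 FPKM in wildtype hippocampus. The 3 libraries of each group lay close together, and the log2 fold change was 1.61 (SE 0.20, adjusted p = 0.002).

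Tap1 and Tap2 encode the subunits of the peptide transporter, and Tapbp encodes tapasin, which bridges the transporter and the heavy chain. Tap1 was at 3.52, 3.19 and 6.7 FPKM in 5xFAD PBS hippocampus, against 1.34, 1.25 and 1.43 FPKM in wildtype hippocampus. The third 5xFAD library was far above the other 2, and the log2 fold change of 1.37 (SE 0.27) had an adjusted p of 0.02. That call was lost when any wildtype library was left out (adjusted p = 0.068, 0.082 and 0.061 without replicates 1, 2 and 3). Tap2 was at 6.33, 5.62 and 6.68 FPKM in 5xFAD PBS hippocampus, against 3.16, 3.37 and 3.84 FPKM in wildtype hippocampus. Its groups were well apart, but its log2 fold change of 0.76 (SE 0.11, adjusted p = 0.0038) was the smallest among the called genes. Tapbp was at 19.8, 23.6 and 23.9 FPKM in 5xFAD PBS hippocampus, against 8.86, 9.9 and 11.8 FPKM in wildtype hippocampus. It was higher by 1.11 on the log2 scale (SE 0.15, adjusted p = 0.0025).

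Of the 3 immunoproteasome subunits 1 was called. Psmb8, the inducible counterpart of Psmb5, was at 13.4, 15.3 and 23.7 FPKM in 5xFAD PBS hippocampus, against 4.14, 4.47 and 4.96 FPKM in wildtype hippocampus. It had the largest log2 fold change of the 9 genes, 1.80 (SE 0.28, adjusted p = 0.0061). Psmb9, the counterpart of Psmb6, was at 4.22, 5.19 and 8.35 FPKM in 5xFAD PBS hippocampus, against 1.35, 2.89 and 1.92 FPKM in wildtype hippocampus. The groups of Psmb9 did not overlap, but both were spread widely, and the difference of 1.32 (SE 0.37) had an adjusted p of 0.084. It passed the threshold when only the 2 groups compared were fitted (adjusted p = 0.035) and without EV replicate 1 (adjusted p = 0.034) or EV replicate 3 (adjusted p = 0.043), libraries that entered only the estimate of spread. Psmb10, the counterpart of Psmb7, was at 19.3, 26 and 29 FPKM in 5xFAD PBS hippocampus, against 18.2, 23.2 and 23.7 FPKM in wildtype hippocampus. Its groups overlapped, and the difference was 0.18 on the log2 scale with a 95% interval of -0.26 to 0.61 (adjusted p = 0.68).

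In prefrontal cortex 6 of the 9 tested genes were higher in 5xFAD mice given PBS and none was lower, against 1.82% of all 13055 tested genes called higher. The median log2 fold change was 0.60 for the 9 genes and 0.02 for all tested genes. The groups did not overlap for 7 of the 9, against 9.75% of all tested genes. Tap1 had the largest difference: 2.25, 2.07 and 2.15 FPKM in 5xFAD PBS cortex, against 0.764, 0.791 and 0.844 FPKM in wildtype cortex. Both groups were tight, and the log2 fold change was 1.03 (SE 0.10, adjusted p = 0.00043). H2-K1 was at 28.2, 28.2 and 26.9 FPKM in 5xFAD PBS cortex, against 18.4, 20.2 and 15.9 FPKM in wildtype cortex, a log2 fold change of 0.60 (SE 0.09, adjusted p = 0.0053). Both of these calls remained whichever of the 6 libraries was left out.

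The other calls in cortex rested on smaller margins. B2m was at 356, 395 and 339.7 FPKM in 5xFAD PBS cortex, against 209, 243 and 167 FPKM in wildtype cortex, with a log2 fold change of 0.83 (SE 0.14, adjusted p = 0.011; 0.058 without 5xFAD PBS replicate 2). H2-D1 was at 64.4, 63.3 and 59.3 FPKM in 5xFAD PBS cortex, against 39.2, 44.1 and 33.1 FPKM in wildtype cortex. Although its groups were apart, the log2 fold change of 0.69 (SE 0.13, adjusted p = 0.02) was called in only 1 of the 6 fits that left out a library of the comparison, the one without wildtype replicate 2, with adjusted p between 0.015 and 0.091. Psmb8 was at 7.91, 8.78 and 7.06 FPKM in 5xFAD PBS cortex, against 3.67, 5.19 and 4.14 FPKM in wildtype cortex. Its log2 fold change was 0.81 (SE 0.15, adjusted p = 0.02), and the call remained only without wildtype replicate 2 or 5xFAD PBS replicate 3 (adjusted p between 0.012 and 0.1 over the 6 omissions). Tapbp, at 12.7, 15.1 and 14.4 FPKM in 5xFAD PBS cortex against 9.46, 11.5 and 9.26 FPKM in wildtype cortex, was at the threshold. Its log2 fold change was 0.46 (SE 0.10, adjusted p = 0.049), and the adjusted p ran from 0.016 to 0.22 when 1 of the 6 libraries was left out, with a call only without wildtype replicate 2. Libraries with the same replicate number deviated together in this comparison, and with the number as a block the calls of H2-D1 (adjusted p = 0.057) and Tapbp (adjusted p = 0.073) were lost. With no filter on low values H2-D1 and Psmb8 (adjusted p = 0.053 each) and Tapbp (0.078) were lost. Limma-voom on reads recovered from the FPKM values called the same genes except Tapbp (adjusted p = 0.053), which was also lost with median-of-ratios scaling (0.059) and when only the groups compared were fitted (0.08).

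For 3 genes cortex gave no call. Tap2 was at 3.73, 3.08 and 3.58 FPKM in 5xFAD PBS cortex, against 2.23, 2.7 and 2.3 FPKM in wildtype cortex. Its groups did not overlap, and the difference was 0.45 (95% interval 0.19 to 0.70, adjusted p = 0.11). Psmb9 and Psmb10 overlapped between the groups, with differences of 0.36 (95% interval -0.09 to 0.81, adjusted p = 0.8) and 0.18 (95% interval -0.12 to 0.49, adjusted p = 0.93).

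**Figure D3:**
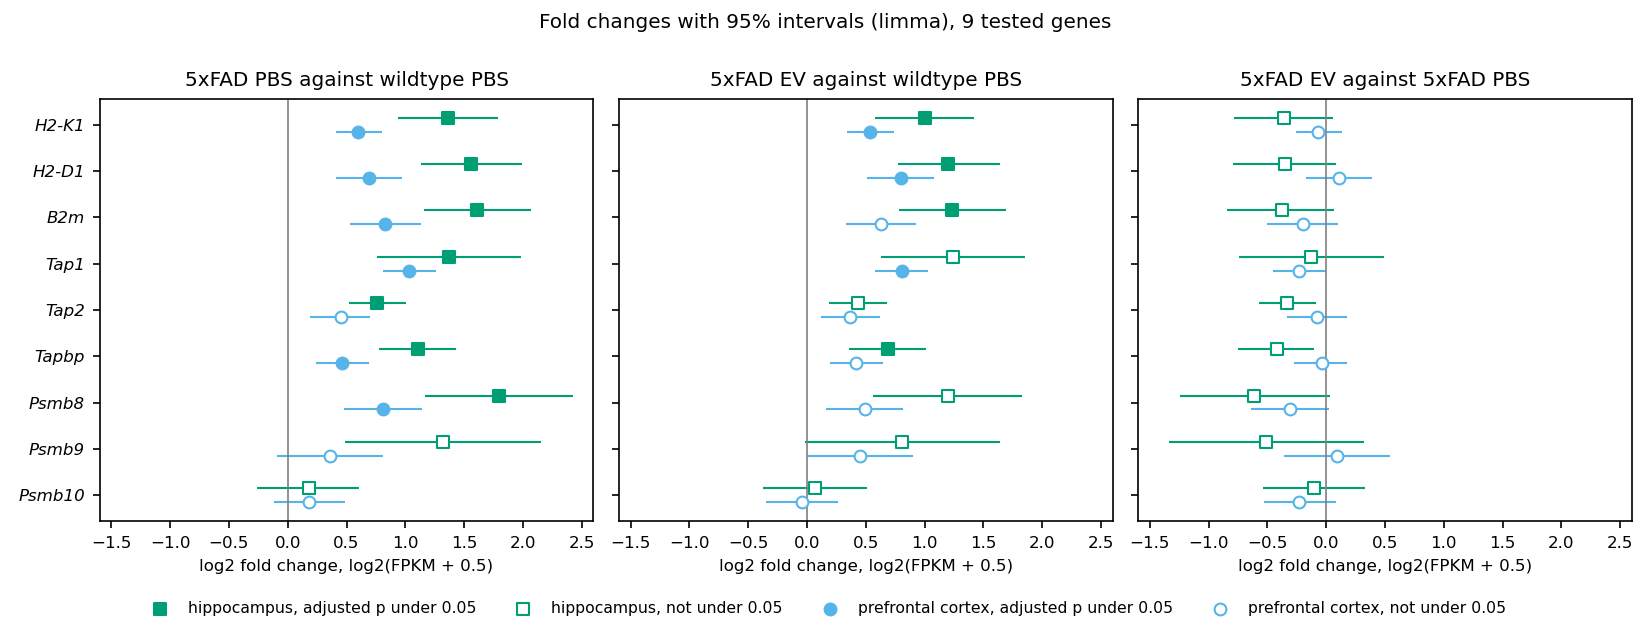
Log2 fold changes of the 9 tested genes on the log2(FPKM + 0.5) scale with 95% intervals, in hippocampus (green squares) and prefrontal cortex (blue circles); filled symbols have an adjusted p under 0.05 in limma. 7 genes are filled in hippocampus and 6 in cortex for 5xFAD PBS against wildtype PBS, and none is filled for 5xFAD EV against 5xFAD PBS.

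Nlrc5, the regulator that drives class I promoters through the X and Y elements, was too low for the filter. It was at 0.426, 0.239 and 0.654 FPKM in 5xFAD PBS hippocampus, against 0.109, 0.0528 and 0.0538 FPKM in wildtype hippocampus, and at 0.189, 0.145 and 0.177 FPKM in 5xFAD PBS cortex, against 0.14, 0.113 and 0.0799 FPKM in wildtype cortex. The groups did not overlap in either tissue, and the ratio of means was 6.13 in hippocampus and 1.53 in cortex. The exact two-sided permutation test gave p = 0.1 in both tissues, the smallest that 3 against 3 libraries allow. Limma with no filter on low values gave adjusted p = 0.094 in hippocampus and 0.72 in cortex. Adding 0.5 FPKM before the log made the hippocampal difference 0.69, against 2.59 on the log2(FPKM) scale. In 5xFAD EV hippocampus Nlrc5 was at 0.145, 0.404 and 0.445 FPKM, above wildtype hippocampus without overlap (ratio of means 4.62, exact permutation p = 0.1) and overlapping PBS hippocampus (0.753, exact permutation p = 0.6). With no filter the one call of Nlrc5 was between tissues in 5xFAD PBS mice, where hippocampus was higher without overlap (ratio of means 2.59, limma adjusted p = 0.039). These FPKM values stand for 15 to 174 reads per library.

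The differences between 5xFAD and wildtype were numerically larger in hippocampus for 8 of the 9 tested genes. Tested directly, the difference between the tissues was called for none of the 13574 genes (0%). Before adjustment, p was under 0.05 for 5 of the 9 genes, H2-K1, H2-D1, B2m, Tapbp and Psmb8, against 5.8% of all genes. H2-D1 differed most clearly among them, by 0.87 on the log2 scale (95% interval 0.35 to 1.40, unadjusted p = 0.0028, adjusted p = 0.53), and Psmb10 by -0.01 (95% interval -0.55 to 0.54). Limma-voom on the reads recovered from the FPKM values made no call either.

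Hippocampus and cortex were also compared within each group. The labels do not say whether libraries with the same number in both tissues came from the same mouse. Every test between tissues treated them as separate, except the fits with a replicate block. In wildtype mice 1 of the 9 genes was called, Tap2, which was 0.44 higher in hippocampus on the log2 scale (SE 0.11, adjusted p = 0.0081), with 8.72% of all genes called higher. Tap1 was at a mean of 1.34 FPKM in wildtype hippocampus and 0.8 FPKM in wildtype cortex, without overlap. Its difference of 0.50 had an adjusted p of 0.14, and it was called when only these groups were fitted (adjusted p = 0.016) and without 5xFAD PBS hippocampus replicate 3 (0.048). H2-K1 and Psmb9 had wildtype differences of 0.20 and 0.14, and H2-D1, B2m, Tapbp and Psmb8 between -0.02 and 0.06. In 5xFAD mice given PBS, 8 genes were higher in hippocampus, with 15.3% of all genes called higher, and Psmb10 was the one without a call, at -0.09. The largest of these differences were 1.10 for Psmb9 (SE 0.32, adjusted p = 0.021) and 1.06 for Psmb8 (SE 0.24, adjusted p = 0.0047). The Psmb9 call was lost without PBS cortex replicate 1 (adjusted p = 0.092) or PBS hippocampus replicate 3 (0.091). In 5xFAD mice given EV, 5 genes were called higher in hippocampus, with 8.60% of all genes: H2-K1, B2m, Tap1, Tap2 and Psmb8, by 0.51 to 0.94. The B2m call was lost without EV hippocampus replicate 3 (adjusted p = 0.16) or EV cortex replicates 2 (0.091) or 3 (0.12). It was also lost with no filter (0.063) and when only the groups compared were fitted (0.17). The Psmb8 call was lost without 4 of the 6 EV libraries, with adjusted p up to 0.18 without hippocampus replicate 3. It was also lost by limma-voom (0.076), with no filter (0.065) and when only the groups compared were fitted (0.14). With the replicate number as a block in limma, the calls of B2m (adjusted p = 0.061) and Psmb8 (0.067) were lost and H2-D1 was called (0.039). Same-numbered EV libraries did not deviate together between the tissues, with correlations of deviations of -0.243, 0.0857 and -0.209.

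The second comparison asked whether the vesicles changed these genes in 5xFAD mice. No member was called in either tissue, nor was any other gene (0% of 13055 in cortex and 0% of 13305 in hippocampus), by limma or by limma-voom on the recovered reads. In cortex no member had an unadjusted p under 0.05, against 4.72% of all genes, and the median difference of the 9 genes was -0.08, against 0.02 for all genes. Tap1 was the one member lower without overlap in EV cortex, where 3.94% of all genes were: 1.76, 1.92 and 1.65 FPKM in 5xFAD EV cortex, against 2.25, 2.07 and 2.15 FPKM in 5xFAD PBS cortex. Its difference was -0.23 (95% interval -0.45 to 0.00, adjusted p = 0.82). Elsewhere the EV and PBS cortices overlapped, as for H2-K1 at 27.2, 27.2 and 25.1 FPKM in EV cortex, against 28.2, 28.2 and 26.9 FPKM in PBS cortex. Its difference was -0.07 (95% interval -0.26 to 0.13).

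In hippocampus the estimate was below 0 for all 9 tested genes, from -0.61 to -0.10, with a median of -0.36, while 55.9% of all genes were below 0 and their median was -0.02. The 9 genes were measured in the same 6 libraries, so their shared sign is not 9 separate observations. Before adjustment limma's p was under 0.05 for 2 of the 9 genes, Tap2 and Tapbp, against 3.9% of all genes, and each had an adjusted p of 0.87. Tap2 was at 5.28, 4.7 and 4.54 FPKM in EV hippocampus, against 6.33, 5.62 and 6.68 FPKM in PBS hippocampus, the one member lower without overlap (5.21% of all genes were). The difference was -0.33 (95% interval -0.57 to -0.09). The 3 EV hippocampi were not alike. B2m was at 363, 416 and 696 FPKM in EV hippocampus, against 634, 600.3 and 614 FPKM in PBS hippocampus, and H2-K1 was at 32.9, 42.1 and 53.7 FPKM in EV hippocampus, against 62.1, 45.1 and 57.2 FPKM in PBS hippocampus. EV replicate 3 had the highest B2m of all 18 libraries, while EV replicates 1 and 2 lay below all PBS libraries. Psmb8 was likewise highest in replicate 3 of the EV libraries, at 7.76, 9.53 and 17.8 FPKM in EV hippocampus, against 13.4, 15.3 and 23.7 FPKM in PBS hippocampus. Its difference of -0.61 had a 95% interval of -1.24 to 0.03. A difference of the EV effect between the tissues was called for no gene (0% of 13574) by limma or limma-voom, and no member had an unadjusted p under 0.05 in that test, against 5.01% of all genes.

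**Figure D4:**
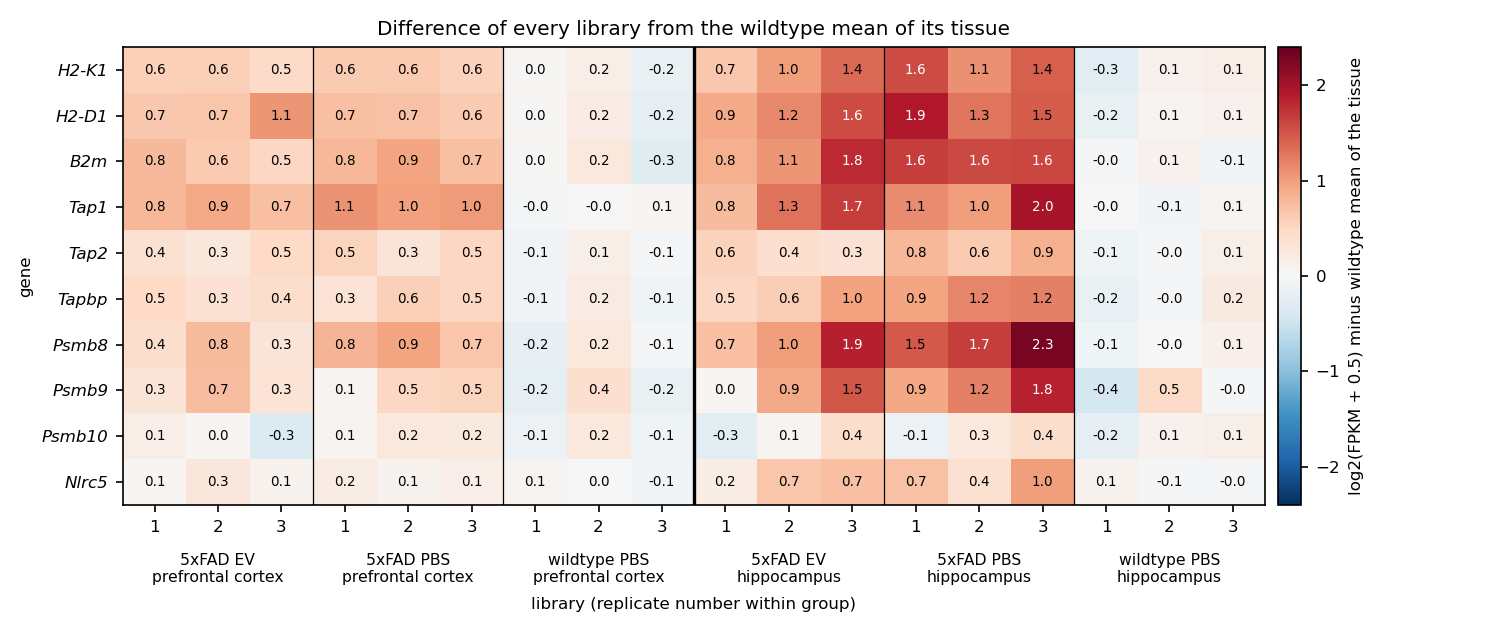
Difference of every library from the wildtype mean of its tissue on the log2(FPKM + 0.5) scale, for the 10 genes (rows) and 18 libraries (columns; 5xFAD EV, 5xFAD PBS and wildtype PBS within each tissue). The median over the genes is 0.60, 0.96 and 1.42 in the 3 EV hippocampi and 1.03, 1.14 and 1.45 in the 3 PBS hippocampi.

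EV mice were also set against the wildtype mice, which are the same controls as above. In cortex 3 genes were higher in 5xFAD EV mice, with 1.40% of all genes called higher. Tap1 was higher by 0.81 (SE 0.10, adjusted p = 0.0029), H2-D1 by 0.80 (SE 0.13, adjusted p = 0.011) and H2-K1 by 0.54 (SE 0.09, adjusted p = 0.013). H2-D1 reached 80.7 FPKM in EV replicate 3, against 60.9 and 61.7 FPKM in the other EV cortices and at most 44.1 FPKM in wildtype cortex. Leaving out wildtype replicate 1 ended the H2-D1 call (adjusted p = 0.058). The H2-K1 call ended without wildtype replicate 1 (0.067), EV replicate 1 (0.065) or EV replicate 2 (0.057). Fitting only these 2 groups also ended both calls (adjusted p = 0.051 for H2-D1 and 0.066 for H2-K1). B2m missed the threshold, with a difference of 0.63 (adjusted p = 0.053), and passed it by limma-voom (adjusted p = 0.043) and without wildtype replicate 2 (0.016). Tapbp passed without that library (adjusted p = 0.027, against 0.084 with it). In hippocampus 4 genes were higher in 5xFAD EV mice, with 1.93% of all genes called higher. B2m was higher by 1.23 (SE 0.20, adjusted p = 0.013), H2-D1 by 1.20 (SE 0.19, adjusted p = 0.011) and Tapbp by 0.69 (SE 0.15, adjusted p = 0.046), and the difference of H2-K1 had a 95% interval of 0.58 to 1.42 (adjusted p = 0.024). Each of these calls was lost without wildtype replicate 1 (adjusted p = 0.055 for B2m, 0.053 for H2-D1, 0.16 for Tapbp and 0.091 for H2-K1), and no member was called in that fit. The call of B2m was also lost without wildtype replicate 3 (0.062). That of H2-K1 was lost without wildtype replicates 2 (0.075) or 3 (0.059) and EV replicates 2 (0.081) or 3 (0.053), and with no filter on low values (0.054). That of Tapbp remained only without EV replicate 1, with adjusted p between 0.049 and 0.17 over the 6 omissions. It was also lost without any of the PBS libraries (0.056, 0.06 and 0.075 without replicates 1, 2 and 3), by limma-voom (0.057), with no filter on low values (0.08) and when only the groups compared were fitted (0.08). Tap1 had a difference of 1.24 (adjusted p = 0.053) and Psmb8 of 1.20 (adjusted p = 0.075). Without EV replicate 1 both passed (adjusted p = 0.029 and 0.042). Tap1 also passed without PBS replicate 2 or 3 (adjusted p = 0.047 and 0.021), with a pseudocount of 0.1 (0.038) and when only the groups compared were fitted (0.031).

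Each immunoproteasome subunit was also expressed as a percentage of its constitutive partner in the same library. Psmb5, Psmb6 and Psmb7 were called in none of the 3 group comparisons of either tissue. In hippocampus of 5xFAD PBS against wildtype mice their differences were -0.08 (95% interval -0.36 to 0.20), 0.04 (-0.27 to 0.35) and 0.11 (-0.20 to 0.43) on the log2 scale. Psmb8 was 12.9%, 10.9% and 19.9% of Psmb5 in 5xFAD PBS hippocampus, against 3.67%, 3.55% and 3.42% in wildtype hippocampus. In cortex the figures were 7.64%, 7.81% and 7.33% in 5xFAD PBS mice, against 3.79%, 4.45% and 3.83% in wildtype mice. The ratio was higher without overlap in both tissues, by 1.99 and 0.92 on the log2 scale, with the smallest exact permutation p that 3 against 3 libraries allow (0.1). In EV hippocampus Psmb8 was 7.24%, 9.53% and 15.9% of Psmb5, which overlapped the PBS values (difference -0.45, exact permutation p = 0.4).

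Psmb9 relative to Psmb6 was higher by 1.50 in 5xFAD PBS hippocampus than in wildtype hippocampus, without overlap (exact permutation p = 0.1), and by 0.44 in cortex with overlap (exact permutation p = 0.2). Psmb10 relative to Psmb7 was 14.5%, 13.6% and 17.5% in 5xFAD PBS hippocampus, against 13.4%, 15.5% and 14.4% in wildtype hippocampus. The Psmb10 groups overlapped there (difference 0.07, exact permutation p = 0.6). In cortex Psmb10 was 17.8%, 17% and 19.5% of Psmb7 in 5xFAD PBS mice, against 14.3%, 16.5% and 15.8% in wildtype mice. That ratio was higher without overlap, by 0.22 on the log2 scale (exact permutation p = 0.1). In every group Psmb8, Psmb9 and Psmb10 transcripts stood below those of their constitutive partners.

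**Figure D5:**
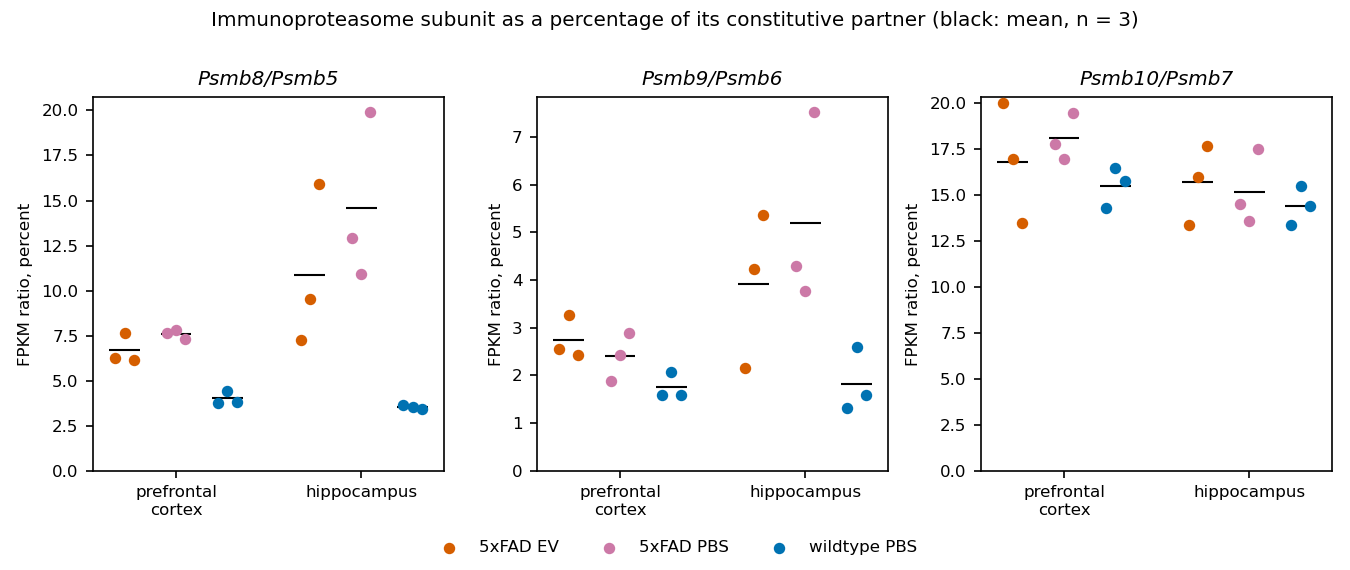
FPKM of each immunoproteasome subunit as a percentage of its constitutive partner in every library, by tissue, with the 5xFAD EV, 5xFAD PBS and wildtype PBS groups from left to right and black bars for the mean of 3 libraries. Psmb8 reaches 10.9% to 19.9% of Psmb5 in 5xFAD PBS hippocampus and is at most 3.67% in wildtype hippocampus, while the Psmb10 groups overlap there.

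The rest of the pathway was taken from lists of genes by function. Of 19 other class I heavy chain and class I-like genes, 17 were in the table and 9 passed the filter in hippocampus. There 7 were higher in 5xFAD PBS than in wildtype mice, against 4.19% of all tested genes called higher. The largest differences among these were 1.71 for H2-T23 (SE 0.29, adjusted p = 0.0089), which encodes the nonclassical molecule Qa-1, and 1.40 for H2-Q4 (SE 0.17, adjusted p = 0.0014). H2-T23 was at 26.2, 27.1 and 47.2 FPKM in 5xFAD PBS hippocampus, against 7.43, 10.4 and 11.2 FPKM in wildtype hippocampus. H2-M3, which presents N-formylated peptides, and Hfe, which takes part in iron regulation, were higher by 1.26 and 1.04. In cortex 8 of these genes were tested and 1 was called higher, H2-T24, against 1.82% of all tested genes. Its difference was 0.75 (SE 0.14, adjusted p = 0.018), a call kept in 1 of the 6 fits that left out a library of the comparison. That of Hfe was kept in 2 of 6. Class I heavy chains, H2-K1 and H2-D1 among them, share long stretches of sequence. Reads could be lost or assigned to the wrong heavy chain gene in the counting, so the single values of these genes are less certain. In 5xFAD EV against wildtype mice 2 were called in each tissue: Mr1 (0.67) and H2-Q4 (0.60) in cortex, and H2-M3 (1.08) and H2-Q4 (0.83) in hippocampus. These 4 calls were not stable: H2-M3 lost its call in each of the 6 fits that left out 1 library of the groups compared (adjusted p up to 0.12), and the others kept theirs in 1 of 6 (up to 0.13 for Mr1, and up to 0.18 in cortex and 0.13 in hippocampus for H2-Q4).

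Of 9 genes of the wider loading complex and of peptide trimming, which include calreticulin, calnexin and Pdia3, 1 was called in hippocampus and 0 in cortex. That gene was Erap1, the aminopeptidase that trims peptides in the endoplasmic reticulum, higher by 0.76 in 5xFAD PBS hippocampus (SE 0.10, adjusted p = 0.0031) and by 0.53 in 5xFAD EV hippocampus than in wildtype hippocampus (adjusted p = 0.029). The EV call held in 1 of the 6 fits that left out 1 library (adjusted p up to 0.15). Of 11 other proteasome core subunits none was called in 5xFAD PBS against wildtype mice in either tissue. Of 9 activators and assembly factors 1 was called, Psme1, a subunit of the PA28 activator, higher by 0.63 in hippocampus (SE 0.15, adjusted p = 0.044; kept in 1 of 6 omissions).

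Among 16 tested regulators of class I transcription, Irf8 was called in both tissues. Irf8, an interferon regulatory factor of myeloid cells, was higher in 5xFAD PBS mice by 1.91 in hippocampus (SE 0.23, adjusted p = 0.0016) and by 1.42 in cortex (SE 0.17, adjusted p = 0.0011). Irf9, which acts in the response to type I interferon, was called in hippocampus, where it was higher by 1.07 (adjusted p = 0.041; kept in 1 of 6 omissions). Irf1, an interferon regulatory factor, had differences of 0.79 in hippocampus (adjusted p = 0.17) and 0.35 in cortex (adjusted p = 0.48), and was not called. It passed the threshold in hippocampus without EV replicate 3 (adjusted p = 0.045). Of the genes for interferon receptors and signalling, Ifnar2 was called, higher by 0.66 in hippocampus (adjusted p = 0.016; kept in 2 of 6 omissions). Ifng, the gene of interferon gamma, was listed at 0 in 16 of the 18 libraries. Of 8 immune receptor genes listed for binding to class I or related molecules, 1 passed the filter, Lilrb4a, an inhibitory receptor of myeloid cells for which class I is not an established ligand in mouse. It was higher in 5xFAD PBS mice by 1.82 in hippocampus (adjusted p = 0.0063) and 1.24 in cortex (adjusted p = 0.0018). In wildtype cortex all 8 averaged under 0.5 FPKM, so Lilrb4a passed the filter there through 5xFAD libraries. In 5xFAD EV against wildtype mice Irf8 was higher by 1.78 in hippocampus (adjusted p = 0.0037) and 1.16 in cortex (adjusted p = 0.0056), the one regulator called. No gene of any of these lists was called between 5xFAD EV and 5xFAD PBS mice. Cd8a, the coreceptor that marks cytotoxic T cells, reached at most 0.218 FPKM.

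Microglial markers also differed between 5xFAD and wildtype mice. Of 14 such markers, 13 were higher in 5xFAD PBS than in wildtype mice in each tissue. Of all tested genes, 4.19% were called higher in hippocampus and 1.82% in cortex. The medians of the marker list were 1.65 in hippocampus and 1.10 in cortex, beside 1.36 and 0.60 for the 9 class I genes. Tyrobp, a signalling adaptor of myeloid cells, was higher by 2.48 in hippocampus (adjusted p = 0.00096) and C1qa, a chain of complement C1q, by 2.12 (adjusted p = 0.0008). Their summed level was 1203 to 2213 FPKM in EV hippocampus, 1592 to 1724 FPKM in PBS hippocampus and 402 to 470.4 FPKM in wildtype hippocampus. In cortex it was 801 to 1096 FPKM in EV mice, 1074 to 1106 FPKM in PBS mice and 393 to 496 FPKM in wildtype mice. EV replicate 3 had the highest sum and the highest B2m of the hippocampi. H2-K1, H2-D1, Tap1, Tap2, Tapbp, Psmb8, Psmb9 and Nlrc5 were highest in a PBS hippocampus, and Psmb10 reached 29 FPKM in both groups. The part of microglial number in the class I differences was not tested. T and natural killer cell markers were low, and 12 or 13 of the 14 averaged under 0.5 FPKM in each group. In hippocampus their sum was higher in 5xFAD than in wildtype mice. It was 1.89 to 1.94 FPKM in EV hippocampus and 2.2 to 2.77 FPKM in PBS hippocampus, against 0.863 to 1.39 FPKM in wildtype hippocampus, without overlap between 5xFAD and wildtype. In cortex it was 1.17 to 5.39 FPKM in EV mice, 3.23 to 4.33 FPKM in PBS mice and 1.29 to 4.25 FPKM in wildtype mice. None of the 1 or 2 markers that passed the filter was called between the groups of a tissue. The part of these cells was not tested. Cd3e and Cd3d, which encode CD3 chains of the T cell receptor complex, reached at most 0.265 and 0.166 FPKM in any library. They were at 0 in 5 and 6 of the 18.

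Choroid plexus markers also differed between the hippocampi, with 8 of 12 called higher in 5xFAD PBS than in wildtype mice, against 4.19% of all tested genes. In wildtype hippocampus 7 of the 12 averaged under 0.5 FPKM, so some of the called genes passed the filter through 5xFAD libraries. The sum over the 12 markers was 5762, 2295 and 190.1 FPKM in EV hippocampus and 2645, 8978 and 2806 FPKM in PBS hippocampus, against 37.6, 86.6 and 172 FPKM in wildtype hippocampus. In the same order, the median class I difference from wildtype was 0.60, 0.96 and 1.42 in EV hippocampus and 1.03, 1.14 and 1.45 in PBS hippocampus. EV hippocampus replicate 3 also had the highest microglial marker sum. In cortex the choroid plexus sum was at most 14 FPKM except in EV replicate 3, at 872 FPKM. That library had the highest H2-D1 of the cortices, and the lowest H2-K1 and B2m of the 5xFAD cortices. Its median class I difference from wildtype was 0.45, against 0.45 and 0.60 in EV cortex replicates 1 and 2. The part of choroid plexus tissue in the hippocampal differences between 5xFAD and wildtype mice was not tested.

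Other marker lists also moved in hippocampus. Markers of dendritic cells and neutrophils summed to 4.73 to 9.98 FPKM in EV hippocampus and 5.84 to 10.1 FPKM in PBS hippocampus, against 1.14 to 1.61 FPKM in wildtype hippocampus, and to 3.73 to 12.7, 6.06 to 6.8 and 0.698 to 1.88 FPKM in EV, PBS and wildtype cortex. Of the 4 of 7 that were tested, Itgax, an integrin chain also known from microglia near plaques, was higher by 3.22 in 5xFAD PBS hippocampus (adjusted p = 0.00075) and 2.80 in 5xFAD PBS cortex (adjusted p = 6.3e-05), and S100a8, a neutrophil protein, by 1.55 in hippocampus (adjusted p = 0.00088). In wildtype mice 6 of the 7 averaged under 0.5 FPKM in each tissue, so most of those tested passed the filter through 5xFAD libraries. Border macrophage markers summed to 2.19 to 3.83 FPKM in EV hippocampus and 5.93 to 9.39 FPKM in PBS hippocampus, against 2.19 to 4.18 FPKM in wildtype hippocampus, and none of the 3 tested was called. Meningeal fibroblast markers summed to 56.5 to 118 FPKM in EV hippocampus and 98.9 to 207 FPKM in PBS hippocampus, against 46.5 to 91.4 FPKM in wildtype hippocampus, with 1 of 8 called in PBS mice, Ogn (1.29, adjusted p = 0.028). Endothelial markers, from a cell type known for class I expression, summed to 66.8 to 96.8 FPKM in EV hippocampus and 75.5 to 95.3 FPKM in PBS hippocampus, against 74.4 to 82.2 FPKM in wildtype hippocampus, which overlapped. None of the 9 was called in 5xFAD PBS mice in either tissue, and 1 was in EV cortex, Slco1a4 (0.62, adjusted p = 0.019). The part of these cells in the class I differences was not tested.

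The genes whose pattern was most like the class I genes were sought over all 18 libraries. For each of 13237 other genes the difference of every library from the wildtype mean of its tissue was compared with the median of the class I genes, by the root mean square of the deviation on the log2 scale. The nearest 8 were Treml2, Ctsc, Il21r, Milr1, Npc2, Inpp5d, Lcp2 and Pycard, at 0.15 to 0.19, against a median of 0.74 for all genes compared. Among the class I genes themselves H2-K1 was nearest to their median, at 0.14, then Tapbp at 0.18, and Psmb10 was the farthest, at 0.64. These distances describe likeness across 18 libraries that share tissue, group and depth, and carry no test.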

How the data were processed

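Values are FPKM per gene as the authors deposited them; per the submitters' processing notes, fastp, HISAT2 and HTSeq were used with GRCm39, and no other setting is named there. Groups and replicate numbers come from the labels. Every gene's FPKM values were whole multiples of 1 read (100% of 18683 genes, relative tolerance 1e-06), which gave 26437852 to 36901744 reads per library. Genes that reached 0.5 FPKM in 3 or more libraries of a fit were tested with limma 3.58.1 in R 4.3.3 on log2(FPKM + 0.5), with an intensity trend, over the 9 libraries of a tissue or all 18 between tissues, two-sided; fits were checked on simulated data. Single ratios and Nlrc5 had exact permutation tests; the tests of Nlrc5 were chosen after seeing its values. The class I genes and all gene lists were chosen with earlier results of these data known. The rule for named genes took every class I gene and, per list and comparison, up to 4 called genes with the largest changes, plus chosen partners and regulators (Psmb5, Psmb6, Psmb7, Irf1 and Irf8 among them). Other genes that it names, most of them cell type markers or genes called between tissues, are not reported here. Ifng, Cd8a, Cd3e and Cd3d were added after their values were seen. Same-numbered libraries deviated together in 1 group comparison, 5xFAD PBS against wildtype cortex (correlations of deviations 0.213, 0.509 and 0.169), a pairing seen in the data and not stated in the labels. Alternatives changed the pseudocount, filter, scaling, test, groups fitted and replicate block, or left out each library. Promoters came from RefSeq windows on GRCm38.p6.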

Additional observations from a re-analysis of the deposited data

How the results depend on the processing

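Over 99 tested values of the class I genes and 2088 alternatives, none changed sign in a way that reversed a call, 74 lost a call and 21 gained one; no scaling moved the median of all genes by over 0.1. With 1 library left out, class I calls ranged from 2 to 6 (main 6) for 5xFAD PBS against wildtype in cortex, 6 to 8 (7) in hippocampus, 1 to 5 (3) for 5xFAD EV against wildtype in cortex and 0 to 6 (4) in hippocampus; 0 to 0 for EV against PBS and for both tests of the difference between tissues; and 1 to 2 (1), 7 to 8 (8) and 3 to 6 (5) for hippocampus against cortex in wildtype, 5xFAD PBS and 5xFAD EV mice. With no filter on low values the calls were 3 for 5xFAD PBS against wildtype in cortex, 2 for 5xFAD EV against wildtype in hippocampus and 3 between tissues in EV mice. Fitting only the groups compared gave 1 for 5xFAD EV against wildtype in cortex and, between tissues, 2 in wildtype and 3 in EV mice. With the replicate number as a block, the pairing gave 4 calls for 5xFAD PBS against wildtype in cortex; in the other comparisons the number is only shared, and the block gave 8 calls for 5xFAD PBS against wildtype in hippocampus, 5 and 6 for 5xFAD EV against wildtype in cortex and hippocampus, and 4 between tissues in EV mice. The causes of these moves were not tested.

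Over all genes, calls ranged with 1 library left out from 141 to 288 (main 256) and 320 to 791 (611) for 5xFAD PBS against wildtype in cortex and hippocampus, 89 to 227 (198) and 159 to 287 (280) for 5xFAD EV against wildtype, and 1628 to 2492 (2297), 2144 to 3731 (3410) and 1480 to 2460 (2156) between tissues in EV, PBS and wildtype mice. Fitting only the groups compared gave 118, against 198, for 5xFAD EV against wildtype in cortex, 1275, against 2297, between tissues in EV mice, and 42, against 0, for the genotype difference between tissues, none of them class I. Nlrc5, at 15 to 174 reads per library, did not pass the filter on low values.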
